A study of Mus musculus with 3 samples.

Results

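Interferon-induced genes and the genes of major histocompatibility complex (MHC) class I were followed in mouse embryonic kidney cells, sorted singly before and after explant culture. The group holds 9 genes, Ifitm1, Ifitm2, Ifitm3, Isg15, Oasl2, Rsad2, B2m, H2-D1 and H2-K1, of 28851 nuclear-encoded features listed on any plate. The genes were chosen with their levels on these plates already known, so differences between the plates are given as description. The question was which kinds of well, stromal or leukocyte, carry the higher levels after culture.

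The study sorted dissociated kidney cells into 384-well plates and made barcoded 3′ libraries by SORT-seq, a plate method that counts molecules with unique molecular identifiers. All cells came from C57BL/6 mice carrying LGR6-EGFP-IRES-CreERT2, an allele that places a reporter and an inducible Cre at the Lgr6 gene. There were 3 plates, 1 per group. The uncultured plate held E11.5 kidney cells of that genotype. Both cultured plates carried ROSA26-tdTomato as well, a Cre reporter, and were grown as whole explants in medium with fetal calf serum. The cultured E12.5 plate was grown for 5 days. The cultured E11.5 plate was grown for 7 days by its title and for 5 days by its stage label. The gate of the sort is not given in the labels. Both cultured plates carry the same sequencing run code and the uncultured plate another, so culture, genotype, age and run cannot be told apart. No group had a second plate, so no test across samples was possible, and every interval below covers counting error only.

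Type I interferons bind the receptor formed by Ifnar1 and Ifnar2, and the kinases Jak1 and Tyk2 then activate transcription factors that switch on interferon-stimulated genes. Interferon gamma acts through Jak1 and Jak2 and is a strong inducer of antigen presentation. MHC class I molecules pair a heavy chain such as H2-D1 or H2-K1 with the light chain B2m and show peptides to T cells and natural killer cells, and embryonic cells are known for low class I levels. Macrophages are resident in the embryonic kidney and express class I strongly.

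Promoters of the members hold letters of the kind that interferon regulatory factors are known to bind, and the stretches are shown because the members share a named pathway. RefSeq promoters (build GRCm38.p6, from 250 bases before to 50 after each listed start) were found for all 9 members. The motif made of GAAA, any 2 bases and GAAA again, searched on both strands, was present in 5 of the 9 members and in 3.99% of 27025 genes. The shorter form GAANNGAAA (any base at N), which does not contain the longer motif and is not contained in it, was present in 3 of 9 members and in 8.68% of genes. Ifitm1 and Oasl2 held no match to either in this window. In the 30-base windows below, each written 5′ to 3′ on the gene's own strand, capitals mark the matches.
Ifitm2: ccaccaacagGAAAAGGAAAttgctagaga
Ifitm3: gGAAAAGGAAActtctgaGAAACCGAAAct
Isg15: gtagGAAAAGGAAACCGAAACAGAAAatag
Rsad2: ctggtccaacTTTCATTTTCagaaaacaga
B2m: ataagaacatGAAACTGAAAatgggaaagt
H2-D1: atctcctcagTTTCACTTCtgcacctaacc
H2-K1: atctccacagTTTCACTTCtgcacctaacc

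The Isg15 window (chr4:156200871-156200900, minus strand) held 3 matches that overlap one another, the first of them 78 bases before the start. The Ifitm3 window (chr7:141010714-141010743, minus strand) held 2 matches, both after the start, and the Ifitm2 match (window chr7:140955988-140956017, minus strand) lay 46 bases before it. The B2m match (window chr2:122147538-122147567, plus strand) lay 139 bases before the start, and the Rsad2 match (window chr12:26456553-26456582, minus strand) was on the opposite strand, 120 bases before the start. The windows of H2-D1 (chr17:35262934-35262963, plus strand) and H2-K1 (chr17:34000418-34000447, minus strand) were identical at 29 of 30 bases and both carry the short form on the opposite strand. The H2-K1, Ifitm2 and Ifitm3 windows lie inside the annotated span of their gene. A match is a description of the letters and not of a bound site.

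Wells were kept if they reached 1000 nuclear-encoded counts and mitochondrial counts made up no more than 30% of nuclear-encoded and mitochondrial counts together. This left 337 wells on the uncultured plate, 200 on the cultured E12.5 plate and 300 on the cultured E11.5 plate, with median counts of 6732.1, 9212.1 and 8992.5. Wells over 3 times the plate median held 45.6% of the counts of the uncultured plate, 15.0% on the cultured E12.5 plate and 10.6% on the cultured E11.5 plate. Wells labelled as controls, 15 per plate, held 4, 0 and 2 counts of all 9 members together, and Ifitm3 was at 0 in all of them. The plates share all 384 well names, and a well name on different plates is not the same cell. Levels are CPM, the counts of a gene summed over kept wells and scaled to equal totals per plate, with exact Poisson 95% intervals. Ratios of CPM have exact binomial intervals of the split of counts.

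The Ifitm genes encode small membrane proteins that block virus entry, and Ifitm3 and Ifitm1 were far higher on both cultured plates. Ifitm3 stood at 19.95 CPM on the uncultured plate (95% interval 15.9 to 24.7), at 424.7 CPM on the cultured E12.5 plate (398.9 to 452.0) and at 418.8 CPM on the cultured E11.5 plate (396.8 to 441.9). Ifitm1 stood at 8.89 CPM (6.26 to 12.3), 130.3 CPM (116.1 to 145.7) and 118.7 CPM (107.0 to 131.2) on the same plates. For both genes the uncultured plate was low and the cultured plates lay close together. The ratio over the uncultured plate was 21.3 (17.0 to 27.0) and 21.0 (16.8 to 26.5) for Ifitm3, and 14.6 (10.4 to 21.2) and 13.3 (9.51 to 19.2) for Ifitm1, with the cultured E12.5 plate given first.

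Ifitm3 was found in 16.6% of uncultured wells, 81.5% of cultured E12.5 wells and 83.3% of cultured E11.5 wells. With every well thinned to 1000 counts the shares were 3.56%, 29.0% and 29.7%. The well with the most Ifitm3 held 5.34% of its counts on the cultured E12.5 plate and 4.57% on the cultured E11.5 plate. Ifitm1 was found in 8.01%, 53.5% and 46.3% of wells.

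Ifitm2 was already abundant before culture and differed less. It stood at 163.4 CPM (151.4 to 176.2) on the uncultured plate, 390.5 CPM (365.5 to 416.5) on the cultured E12.5 plate and 420.2 CPM (398.0 to 443.2) on the cultured E11.5 plate. The ratios over the uncultured plate were 2.39 (2.16 to 2.64) and 2.57 (2.34 to 2.82). Ifitm2 was found in 66.2%, 94.5% and 93.3% of wells. The Ifitm genes are near copies, so the counting could have split or moved reads among them, and their separate values are uncertain to that extent.

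The antiviral effectors Isg15, Oasl2 and Rsad2 were rare on every plate and did not move together. Isg15, a ubiquitin-like modifier, had no count on the uncultured plate, where a floor of 3 counts is 0.721 CPM. It had 13 counts in 9 wells (5.53 CPM) on the cultured E12.5 plate and 4 counts in 3 wells (1.25 CPM) on the cultured E11.5 plate. Against that floor Isg15 was 7.67-fold higher on the cultured E12.5 plate, and the lower end of the interval of the ratio was 5.40. The 4 counts of the cultured E11.5 plate against 0 are under 10 counts in the pair, and the lower end of the interval of that ratio was 0.855. Without the wells over 3 times the median the cultured E12.5 value against the floor was 3.78, and in even plate columns it was 1.72.

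Oasl2, a member of the oligoadenylate synthetase family, was higher after culture. It had 9 counts in 8 wells (2.16 CPM) before culture, 42 counts in 21 wells (17.9 CPM) on the cultured E12.5 plate and 35 counts in 25 wells (10.9 CPM) on the cultured E11.5 plate. The ratios were 8.26 (3.96 to 19.3) and 5.04 (2.37 to 11.9).

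Rsad2, which encodes the antiviral enzyme viperin, went the other way. It had 31 counts in 13 wells (7.45 CPM) on the uncultured plate, 1 count (0.426 CPM) on the cultured E12.5 plate and 8 counts in 4 wells (2.49 CPM) on the cultured E11.5 plate. Rsad2 CPM was lower than on the uncultured plate by a factor of 17.5 (2.92 to 713) on the cultured E12.5 plate and 2.99 (1.34 to 7.53) on the cultured E11.5 plate. On the uncultured plate 26 of the 31 counts, 83.9%, lay in the 19 wells with at least 3 of 8 endothelium markers, and Rsad2 was found in 10 of those 19 wells. The cultured plates had 3 such wells each, so fewer endothelial wells and less Rsad2 per endothelial cell cannot be told apart. The part of these wells in the difference was not tested beyond the following value. Without wells holding at least 3 leukocyte or endothelium markers the Rsad2 ratio was 0.400 on the cultured E12.5 plate and 0.695 on the cultured E11.5 plate.

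Class I genes differed among themselves. B2m stood at 159.8 CPM (147.9 to 172.5) on the uncultured plate, 239.9 CPM (220.7 to 260.7) on the cultured E12.5 plate and 301.2 CPM (282.5 to 320.8) on the cultured E11.5 plate. The ratios over the uncultured plate were 1.5 (1.34 to 1.68) and 1.89 (1.71 to 2.08), both under 2-fold. B2m was found in 51.9%, 69.5% and 77.3% of wells. The cultured E12.5 ratio was 0.986 without wells over 3 times the median count and 1.07 as a mean over wells. Without the C1qa wells, which hold much of the B2m of the uncultured plate, the ratios were 2.13 (1.87 to 2.43) and 2.24 (1.99 to 2.54).

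H2-K1 was higher after culture. It had 30 counts (7.21 CPM, 4.87 to 10.3) on the uncultured plate, 68 counts (28.9 CPM, 22.5 to 36.7) on the cultured E12.5 plate and 154 counts (48.0 CPM, 40.7 to 56.2) on the cultured E11.5 plate. The ratios were 4.01 (2.58 to 6.39) and 6.65 (4.48 to 10.2). Without the C1qa wells they were 7.70 and 11.2.

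H2-D1 showed no common direction. It stood at 26.4 CPM (21.7 to 31.9), 18.8 CPM (13.6 to 25.1) and 43.6 CPM (36.7 to 51.5) on the uncultured, cultured E12.5 and cultured E11.5 plates, with ratios over the uncultured plate of 0.710 (0.488 to 1.01) and 1.65 (1.28 to 2.14). A single well of the cultured E12.5 plate, with all 8 endothelium markers and no C1qa, held 21.1 of the 44.1 counts, and without the leading well of each plate the ratio was 0.420. It was 0.293 without wells over 3 times the median count. The cultured E11.5 ratio was 1.15 without those deep wells and 0.629 without wells holding any leukocyte marker, a setting that left 73 of 300 wells. H2-D1, H2-K1 and the H2-Q genes are near copies, so their split of reads is uncertain.

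**Figure D1:**
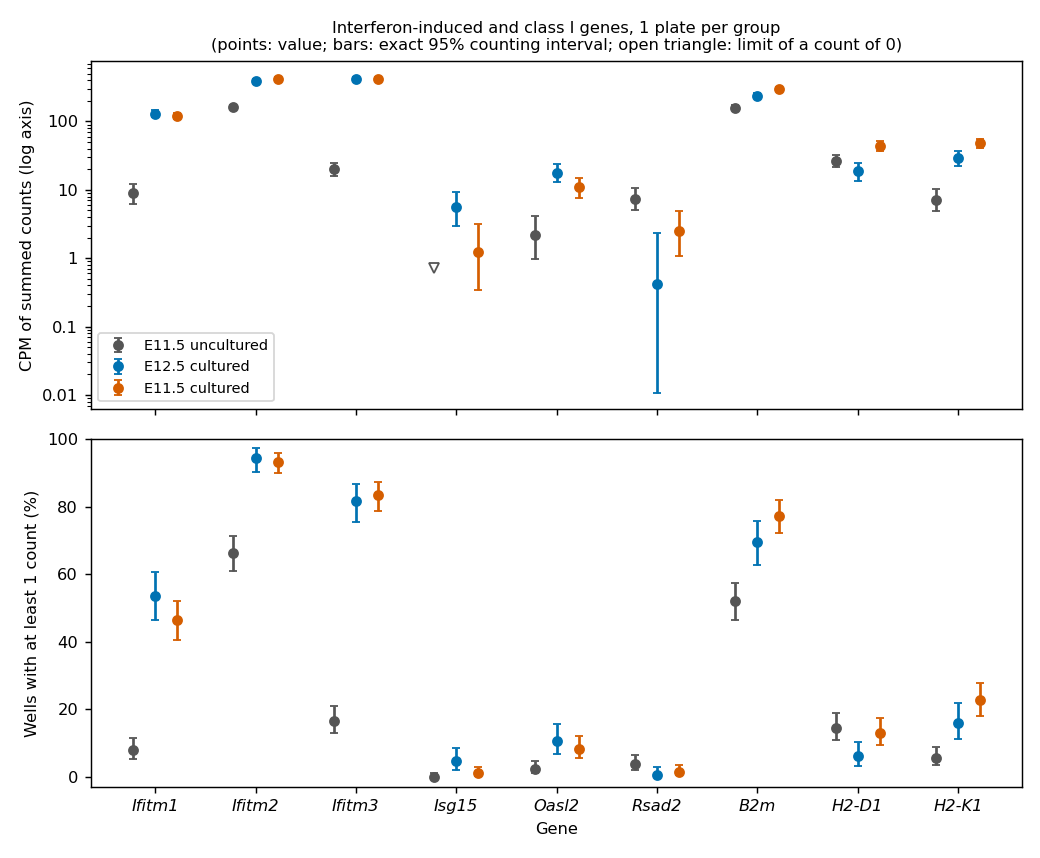
Upper panel, CPM of summed counts of each member (log axis) on each plate, with exact 95% counting intervals; lower panel, percent of kept wells with at least 1 count. Ifitm3 and Ifitm1 are low on the uncultured plate and close together on the cultured plates, while Rsad2 is highest on the uncultured plate.

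By the rule of at least 2-fold with at least 10 counts in the pair, 5 of the 8 members tested were higher on the cultured E11.5 plate, where 20.8% of all features tested were. On the cultured E12.5 plate 6 of 9 were higher, against 18.9% of all features. Rsad2 was the only member at least 2-fold lower, on both plates, where 11.3% (cultured E11.5) and 13% (cultured E12.5) of features were. The median log2 ratio of the tested members was 1.85 and 2.0 on the cultured E11.5 and E12.5 plates, and that of all features 0.07 and -0.01. Without the C1qa wells 6 of 8 members were higher on the cultured E11.5 plate (21.2% of features) and 7 of 9 on the cultured E12.5 plate (19.4%). Without wells holding at least 3 leukocyte or endothelium markers, a setting chosen after seeing the data, 6 of 7 were higher on each, against 20.9% and 19.2%. These contrasts chose the members, so nothing is read from the counts, and the comparisons share the uncultured plate.

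Between the cultured plates 2 of 8 members differed at least 2-fold, where 12.8% of all features did. Isg15 was at 0.225 times the cultured E12.5 level on the cultured E11.5 plate (0.0535 to 0.729) and H2-D1 at 2.32 times (1.65 to 3.35). The Ifitm genes lay between 0.911 and 1.08 times. Without the C1qa wells the H2-D1 ratio was 1.63 (1.04 to 2.63).

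Wells were then sorted by the marker genes Col1a1 (collagen I, stroma), Six2 (nephron progenitors), Epcam (epithelium) and C1qa (complement, macrophages). Col1a1 alone did not set stroma apart on the cultured plates. At least 1 Col1a1 count was found in 246 of 337 uncultured wells, in 199 of 200 and in 300 of 300 cultured wells, and in 5, 10 and 12 of the 15 control wells of the uncultured, cultured E12.5 and cultured E11.5 plates. It was also found in all 9 and all 15 C1qa wells of the cultured plates, at a median of 5 and 14 counts. Stroma is therefore described from wells with Col1a1 and no count of C1qa, Epcam or Six2, which numbered 118, 143 and 230 and had median Col1a1 counts of 7, 40.2 and 71.1. All 10 stroma markers were detected in this class on each plate, and at least 3 of them in 115, 143 and 230 of its wells. On the cultured plates this does not set stroma apart either. At least 3 stroma markers were found there in 198 of 200 and 299 of 300 kept wells, among them all 9 and all 15 C1qa wells. Their summed level was 20327 and 30054.5 CPM in the class, and 9324.5 and 17808 CPM in C1qa wells. The class held 19.0%, 63.2% and 72.7% of all kept counts, so its share of a gene's counts follows its size as well as its level.

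Within these stromal wells the Ifitm genes, Oasl2 and H2-K1 were higher on both cultured plates. Ifitm3 stood at 30.4 CPM (19.5 to 45.2), 479.7 CPM (445 to 516) and 430.8 CPM (404 to 458), and was found in 17.8%, 85.3% and 83.9% of wells. The ratios over uncultured stroma were 15.8 (10.5 to 24.8) and 14.2 (9.47 to 22.2), with groups far outside each other's counting intervals. Ifitm1 had 5 counts before culture (6.33 CPM), and its ratios were 24.8 (10.5 to 77.0) and 17.9 (7.56 to 55.5). Ifitm2 stood at 206.4, 408.7 and 438.4 CPM, with ratios of 1.98 (1.66 to 2.37) and 2.12 (1.80 to 2.52). Oasl2 had 1, 28 and 22 counts, so its difference rests on 1 uncultured count.

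Class I heavy and light chains were less alike in stroma. B2m stood at 155.7, 225.0 and 232.3 CPM, with ratios of 1.45 (1.17 to 1.79) and 1.49 (1.22 to 1.83). H2-K1 stood at 3.80, 14.1 and 29.1 CPM, with ratios of 3.72 (1.11 to 19.5) and 7.67 (2.52 to 38.1), but its 3 uncultured counts all lay in 1 well. H2-D1 stood at 17.7, 18.9 and 20.6 CPM, ratios of 1.07 (0.542 to 2.19) and 1.16 (0.629 to 2.28), a difference not detectable at this depth. With at least 3 Col1a1 counts required, those H2-D1 ratios were 3.21 and 3.47. Both cultured E12.5 ratios include 1 well with all 8 endothelium markers. It held 21.1 of the 28.1 H2-D1 counts of the class on that plate.

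In stroma 5 of 7 members were at least 2-fold higher on the cultured E11.5 plate, where 17.8% of features were, and 4 of 7 on the cultured E12.5 plate, where 16.9% were. Other cell types were not wholly absent from the class. At least 3 macrophage markers were found in 2, 2 and 8 of its wells, at least 3 endothelium markers in 2, 2 and 3, and at least 3 of 8 granulocyte markers in 0, 0 and 23. The summed CPM in the class was 88.8, 33.7 and 180.4 for the 12 macrophage markers and 1.27, 2.02 and 845.7 for the 8 granulocyte markers, with C1qa at 0 by construction and Ngp and Ltf at 0 on every plate. Without those wells 114, 139 and 200 stromal wells remained, and the H2-D1 ratio on the cultured E12.5 plate was 0.818.

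Wells with a Six2 or an Epcam count also held more of the Ifitm genes after culture. On each plate, before culture too, these wells carried more stroma-marker RNA than RNA of nephron progenitor or epithelium markers. The 10 stroma markers summed to 2031 CPM in uncultured Six2 wells, 26543 CPM in cultured E12.5 and 21323 CPM in cultured E11.5 Six2 wells, and the 8 nephron progenitor markers to 1719, 936.5 and 566.7 CPM. At least 3 stroma markers were found in all 33 and all 46 cultured Six2 wells, and at least 3 nephron progenitor markers in 17 and 14. Six2 wells are therefore named by the gene and not by a cell type. In Six2 wells without C1qa and Epcam (130, 33 and 46 wells) Ifitm3 stood at 13.9, 378.2 and 452.1 CPM, with ratios of 27.1 (17.3 to 44.7) and 32.5 (20.8 to 53.2). B2m stood at 84.2, 253.3 and 258.5 CPM in these wells, ratios of 3.01 (2.35 to 3.84) and 3.07 (2.41 to 3.92), which is a wider gap than in stroma. H2-K1 had 4 counts in them before culture, and its ratios were 10.4 (3.37 to 42.9) and 16.9 (5.86 to 66.6). By the 2-fold rule 7 of 8 members were higher on the cultured E11.5 plate (16.6% of features) and 6 of 8 on the cultured E12.5 plate (16% of features), where H2-D1, at 1 count, was lower (16.2% of features). Of the 15 H2-D1 counts in these wells on the cultured E11.5 plate, 12 came from 1 well with 11 macrophage markers. That well also held 7 of the 26 H2-K1 and 26.1 of the 150.1 B2m counts, and another well held 8 of the H2-K1 counts. On the cultured E12.5 plate 1 deep well with all 10 stroma markers held 45.2 of the 146.2 B2m counts.

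Epcam wells without C1qa numbered 37, 15 and 9. The 8 epithelium markers summed to 257.3, 2336 and 3225 CPM in them and the 10 stroma markers to 2279, 8469 and 9893 CPM. The 8 nephron progenitor markers summed to 1639, 287.2 and 222.0 CPM. At least 3 stroma markers were found in 26, 13 and 8 of these wells. Ifitm3 stood at 12.8, 209.4 and 131.2 CPM there, with ratios of 16.4 (9.05 to 30.8) and 10.3 (4.63 to 22.2). On the cultured plates this was 0.437 and 0.304 times the level in stroma. H2-K1 was the exception, at 1.42 CPM (2 counts), 89.8 CPM (15 counts) and 80.7 CPM (8 counts). The H2-K1 ratios over uncultured Epcam wells were 63.3 (14.7 to 571) and 57.0 (11.4 to 551), and on the cultured E12.5 plate H2-K1 was 6.35 times as high (3.04 to 12.9) in Epcam wells as in stroma. Those 15 counts came from 5 of 15 wells. Both uncultured counts came from 1 well of 151477.5 counts. It held all 8 nephron progenitor markers, 8 of 10 stroma markers and 3 of 8 epithelium markers. In Epcam wells 4 of 5 members tested were at least 2-fold higher on the cultured E11.5 plate (24.4% of features) and 3 of 5 on the cultured E12.5 plate (19.8%).

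Leukocyte wells carried class I at high levels before culture as well as after. C1qa was found in 23, 9 and 15 wells, which held 4.75%, 5.09% and 6.16% of all counts, and all 12 macrophage markers were detected in them on each plate. At least 3 macrophage markers were found in 18 of 23, 4 of 9 and 14 of 15 of these wells. B2m stood at 1263 CPM (1113 to 1432), 544.3 CPM (419 to 693) and 1309.9 CPM (1155 to 1479) in C1qa wells. That was 12.1 (10.3 to 14.2), 2.43 (1.85 to 3.16) and 5.57 (4.81 to 6.43) times the level in the wells without C1qa of the same plate.

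The heavy chains showed the same order. H2-D1 stood at 268.2, 125.4 and 384.2 CPM in C1qa wells, 18.6 (12.6 to 27.6), 9.61 (4.80 to 18.6) and 18.1 (12.8 to 25.6) times the other wells. H2-K1 stood at 91.1, 133.8 and 262.9 CPM, 30.1 (13.7 to 68.5), 5.74 (3.06 to 10.2) and 7.77 (5.45 to 10.9) times the other wells. For all 3 class I genes the ratio to the other wells was largest on the uncultured plate and smallest on the cultured E12.5 plate, with overlapping intervals for H2-D1. In C1qa wells 5 of 7 members were at least 2-fold higher than in the rest of the uncultured plate, where 22.7% of features were. The numbers were 3 of 8 on the cultured E12.5 plate, against 21.8%, and 3 of 7 on the cultured E11.5 plate, against 19.5%.

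Within C1qa wells B2m and H2-D1 were not higher on both cultured plates, and Ifitm3 was. From the uncultured to the cultured E11.5 plate the ratio in C1qa wells was 1.04 (0.866 to 1.24) for B2m, 1.43 (0.996 to 2.07) for H2-D1, 2.89 (1.66 to 5.24) for H2-K1 and 5.81 (3.04 to 12.2) for Ifitm3. To the cultured E12.5 plate it was 0.431 (0.322 to 0.566) for B2m, 0.468 (0.245 to 0.842) for H2-D1, 1.47 (0.701 to 3.05) for H2-K1 and 4.81 (2.36 to 10.6) for Ifitm3. Both comparisons use the same uncultured wells. Not every C1qa well held 3 macrophage markers. In the 22, 7 and 27 wells that did, with or without C1qa, the ratio to the cultured E11.5 plate was 0.567 (0.480 to 0.668) for B2m, 0.742 (0.528 to 1.05) for H2-D1, 1.44 (0.844 to 2.58) for H2-K1 and 7.19 (3.94 to 14.7) for Ifitm3. To the cultured E12.5 plate it was 0.476 (0.373 to 0.598), 0.334 (0.178 to 0.592), 1.06 (0.515 to 2.19) and 8.32 (4.40 to 17.3). B2m was thus lower in macrophage-marker wells of both cultured plates, while in C1qa wells it was lower on the cultured E12.5 plate alone. The macrophage-marker wells include 1 deep well with all 10 stroma markers and no C1qa on each cultured plate. On the cultured E12.5 plate it held 53.3 of their 81.3 Ifitm3 counts and 45.2 of their 104.3 B2m counts. On the cultured E11.5 plate it held 61.5 of their 201.5 Ifitm3 counts. In C1qa wells, by the 2-fold rule, 3 of 6 members were higher on the cultured E11.5 plate (13.4% of features). On the cultured E12.5 plate 2 of 6 were higher (14.2%) and 2 of 6 lower (19.6%).

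**Figure D2:**
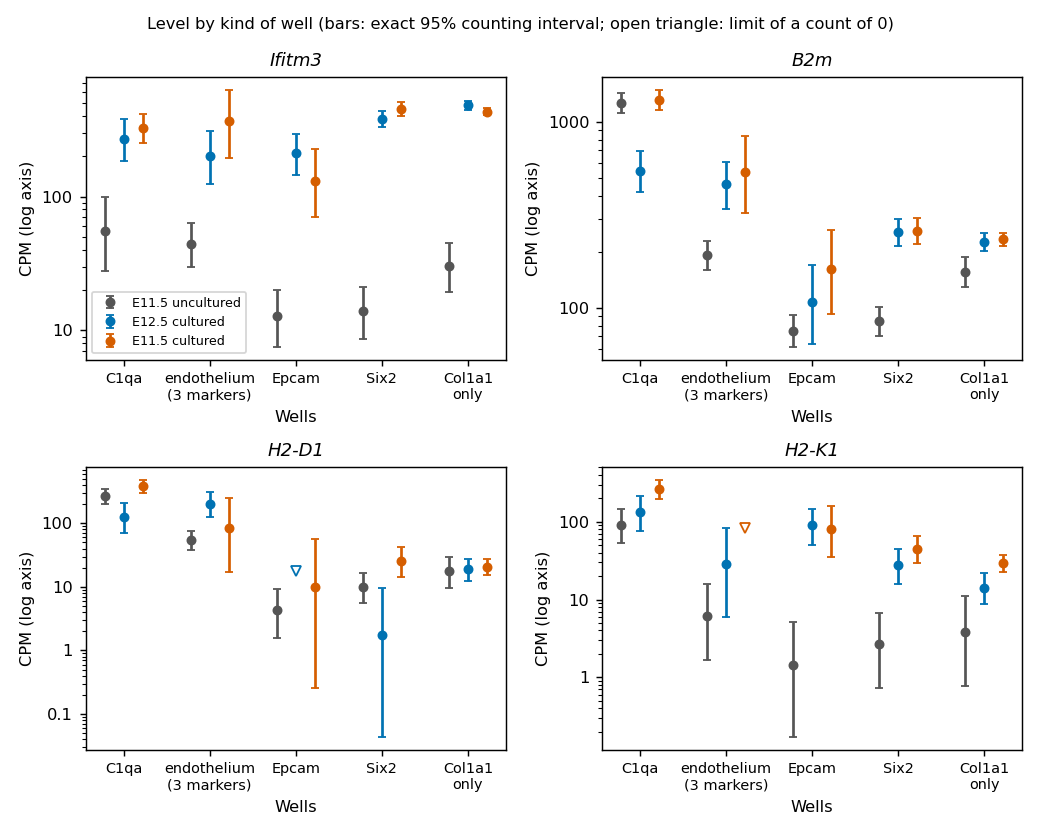
CPM of Ifitm3, B2m, H2-D1 and H2-K1 (log axes) by kind of well and plate, with exact 95% counting intervals; endothelium wells hold at least 3 endothelium markers, Epcam wells are without C1qa, Six2 wells without C1qa and Epcam, and Col1a1-only wells without all 3. Ifitm3 is higher on the cultured plates in each kind of well shown, and B2m and H2-D1 are highest in C1qa wells, except H2-D1 on the cultured E12.5 plate, where 1 endothelium well holds 21.1 counts.

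The plate totals were divided among these kinds of well to see where the added counts lay. Stromal wells held 19.0%, 63.2% and 72.7% of all counts, and Six2 wells 36.2%, 24.6% and 18.1%. The part of a gap in a class therefore follows its size as well as its level. Of the gap in Ifitm3 plate CPM over the uncultured plate, stromal wells carried 73.5% on the cultured E12.5 plate and 77.0% on the cultured E11.5 plate, Six2 wells 21.7% and 19.2%, and C1qa wells 2.71% and 4.33%. Ifitm1 was divided likewise, with 80.7% and 73.8% in stromal wells and 2.41% and 4.95% in C1qa wells. C1qa wells held 6.13%, 3.74% and 4.85% of all Ifitm1, Ifitm2 and Ifitm3 counts, close to their share of all counts. This division takes C1qa as the only leukocyte marker. Wells with at least 3 macrophage markers held 22.2%, 10.3% and 22.4% of all member counts, beside 3.99%, 6.28% and 13.2% of all counts. Granulocyte-marker wells held 18.3% of member counts on the cultured E11.5 plate, beside 17.2% of all counts. Of those 30 wells, 23 are counted here as stromal.

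Class I counts were held by leukocyte wells to a larger extent. C1qa wells held 39.8% of B2m, H2-D1 and H2-K1 counts together on the uncultured plate, 14.2% on the cultured E12.5 plate and 30.7% on the cultured E11.5 plate. Of the H2-D1 gap on the cultured E11.5 plate C1qa wells carried 63.7% and stromal wells 67.5%, and Epcam wells and wells with none of the 4 markers carried less than before culture. Of the H2-K1 gap C1qa wells carried 11.4% on the cultured E12.5 plate and 29.1% on the cultured E11.5 plate, and stromal wells 37.8% and 50.2%. For B2m, C1qa wells carried 14.6% of the cultured E11.5 gap and less than before on the cultured E12.5 plate (27.7 CPM of the plate total against 60.0 CPM). Stromal wells went from 29.6 CPM of the plate total to 142 and 169 CPM. The level within stromal wells was 155.7, 225.0 and 232.3 CPM for B2m and 17.7, 18.9 and 20.6 CPM for H2-D1. These parts thus follow the larger size of the class as well as its level.

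**Figure D3:**
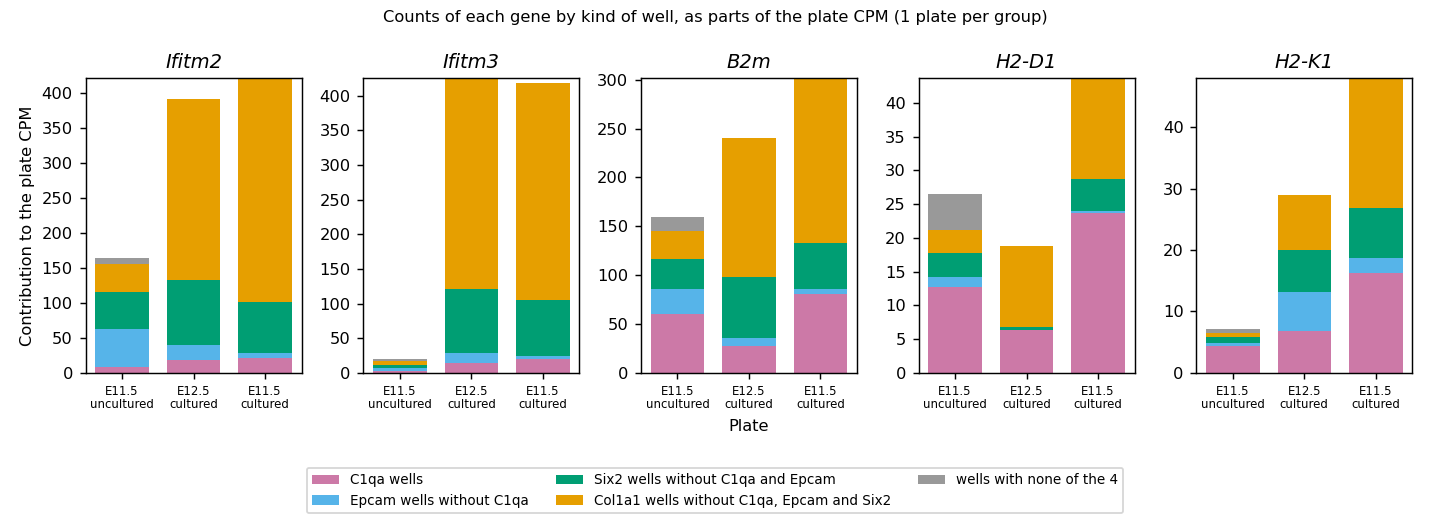
Contribution of each kind of well to the plate CPM of Ifitm2, Ifitm3, B2m, H2-D1 and H2-K1; bars are stacked and sum to the plate level, with 1 plate per group. Col1a1 wells without the other 3 markers make up most of the cultured Ifitm3 bars, and C1qa wells a larger part of the H2-D1 bars.

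Granulocyte-marker wells were found on the cultured E11.5 plate alone, 30 of 300 wells with at least 3 of 8 markers. Ifitm3 stood at 476.2 CPM and H2-D1 at 57.8 CPM in them. Endothelium-marker wells of the uncultured plate (19 wells with 15.7% of counts) held 34.9% of its Ifitm3, 32.7% of its H2-D1 and 18.8% of its B2m counts. Before culture Ifitm3 was found in each of the 4 marker classes and in endothelium-marker wells.

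Among single wells, Isg15, Rsad2 and H2-D1 met in a macrophage-marker well. A cultured E11.5 well with 11 of 12 macrophage markers and no C1qa held 2 of the 4 Isg15 counts, 5 of the 8 Rsad2 counts and 4 of the 35 Oasl2 counts of the plate. Without the leading well of each plate the Rsad2 ratio between the cultured plates, 5.85 (0.785 to 260), was 0.730. On that plate the correlation across 300 wells, which share a library and differ in depth, was 0.86 for Isg15 with Rsad2 and rests on 2 wells with both. H2-D1 and H2-K1 correlated at 0.49 and B2m and H2-D1 at 0.45, and Ifitm1 and Ifitm3 at 0.39, on the cultured E11.5 plate. Ifitm1 was found in 139 wells there, 129 of which also held Ifitm3.

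The genes most like each member across wells also differed. Likeness was the lower of the correlations on the cultured plates (200 and 300 wells), over 9578 genes found in at least 10% of wells. The nearest genes to H2-D1 were Lgmn (0.54), Cd68 (0.53), Sirpa (0.53), Fxyd5 (0.53) and Ctsc (0.52). H2-D1 itself was found in 12 of the 200 and 39 of the 300 wells (6% and 13%), so these correlations rest on few wells. Those nearest to Ifitm3 were Ifitm1 (0.39), Shisa3 (0.32), Anxa6 (0.31), Serpina3g (0.30) and Serpine2 (0.30). Ifitm2 was nearest to the merged feature Ifitm5-cluster (0.35), Lrrc17 (0.22), Maged2 (0.21), Hic1 (0.21) and Maged1 (0.21). The nearest to B2m were Cyba (0.30), Bst2 (0.29), Arpc5 (0.29), Tmsb4x (0.28) and Apbb1ip (0.28), all weak correlations. Cd68 is a lysosomal protein of macrophages, Lgmn and Ctsc are lysosomal proteases, and Bst2 is itself interferon-induced.

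Multi-cell wells, labelled as holding more than 1 cell, gave another reading of each cultured plate, with 38 kept wells on the cultured E12.5 plate and 36 on the cultured E11.5 plate. On the cultured E12.5 plate Ifitm3 stood at 127.8 CPM in them, 0.301 times the single-cell wells (0.237 to 0.377), and Ifitm1 at 45.2 CPM, 0.347 times (0.228 to 0.508). H2-K1 stood at 60.8 CPM, 2.10 times (1.38 to 3.16), and 4 of 8 members differed at least 2-fold, where 20.8% of features did. The summed level of 10 stroma markers was 5906.5 CPM in these wells and 20451 CPM in the single-cell wells, and that of the 12 macrophage markers 1169.6 and 422.9 CPM. Erythroid markers summed to 11181 and 179.6 CPM, epithelium markers to 1124.7 and 204.0 CPM, and nephron progenitor markers to 1866 and 360.4 CPM. Endothelium markers (67.0 and 410.0 CPM) and neural and neural crest markers (63.9 and 157.0 CPM) were lower in the multi-cell wells. The part of that make-up in the difference was not tested.

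On the cultured E11.5 plate the multi-cell wells were closer to the rest. Ifitm3 stood at 329.6 CPM, 0.787 times the single-cell wells, B2m at 240.2 CPM, 0.797 times, and H2-K1 at 93.6 CPM, 1.95 times. None of 7 members differed at least 2-fold, where 15.4% of features did. In multi-cell wells of both cultured plates Ifitm3 remained above the uncultured single-cell level of 19.95 CPM.

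The other genes of the pathway were taken from lists chosen with earlier results of these plates known and were read by the same rule. The counts stand against 20.8% of all features higher and 11.3% lower on the cultured E11.5 plate, and 18.9% higher and 13% lower on the cultured E12.5 plate, and nothing particular to a list is read from them. The interferon genes in the list were nearly undetected: Ifnb1, Ifng, Ifnl2 and Ifnl3 had no count on any plate and Ifnk had 1. Other interferon genes were not looked up. Of 8 ligand and receptor genes tested, 3 were at least 2-fold higher on the cultured E11.5 plate and 2 on the cultured E12.5 plate, beside 20.8% and 18.9% of all features, and none was lower. Ifnar2 stood at 13.5, 37.0 and 30.8 CPM on the uncultured, cultured E12.5 and cultured E11.5 plates. The most counted were Jak1, with ratios of 1.23 on the cultured E12.5 plate and 1.44 on the cultured E11.5 plate, Ifngr2, with 1.03 and 1.30, and Jak2, with 1.72 and 1.60.

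Of the transcription factors and sensors, 9 of 15 were at least 2-fold higher on the cultured E11.5 plate and 8 of 14 on the cultured E12.5 plate, beside 20.8% and 18.9% of all features, and none was lower. Irf1, which drives class I genes, stood at 9.14, 52.0 and 48.0 CPM, ratios of 5.69 (3.92 to 8.41) and 5.25 (3.66 to 7.70). Irf3, a sensor-activated factor, had ratios of 2.07 and 1.59, Irf2 1.23 and 1.36, and the adaptor Mavs 0.768 and 0.812.

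Of the other interferon-induced genes, 18 of 29 were higher on the cultured E11.5 plate with none lower, and 16 of 26 higher with 2 lower on the cultured E12.5 plate, beside 20.8% and 18.9% of all features higher and 13% lower on the cultured E12.5 plate. Ifih1 is counted in this list and among the sensors. The median log2 ratio was 1.31 and 1.63, against 0.07 and -0.01 for all features. The chemokine Cxcl10 had 1, 13 and 16 counts, ratios of 23.0 (3.46 to 978) and 20.7 (3.22 to 869). Ifit1, an RNA-binding effector without a count before culture, was 4.32-fold higher on the cultured E11.5 plate against the floor of 3 counts. The lower end of the interval of that ratio was 2.90. Shisa5 stood at 51.0, 114 and 107 CPM, and Ifi30, a lysosomal thiol reductase, had ratios of 1.26 and 1.56. Among other Ifitm genes only Ifitm5 had enough counts for a ratio, 5.67 (1.98 to 19.8) on the cultured E12.5 plate. Samhd1, an enzyme that limits nucleotides, was lower, with ratios of 0.601 and 0.636. Cmpk2, the gene next to Rsad2, had ratios of 0.354 and 0.518, and Ifi204 0.208 on the cultured E12.5 plate.

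Of the genes that load class I, 6 of 13 were higher on the cultured E11.5 plate and 4 of 11 on the cultured E12.5 plate, beside 20.8% and 18.9% of all features, and none was lower. The peptide transporter Tap1 stood at 1.20, 14.9 and 12.1 CPM, ratios of 12.4 (4.84 to 40.5) and 10.1 (3.98 to 32.8), and the immunoproteasome subunit Psmb9 had 1, 8 and 10 counts. The general chaperones Calr and Canx had ratios of 1.39 and 1.36, and of 0.799 and 0.761. Pdia3, a thiol oxidoreductase of the loading complex, had 1.69 and 1.63.

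Of the other class I genes, 7 of 9 were higher on the cultured E11.5 plate and 2 of 5 on the cultured E12.5 plate, beside 20.8% and 18.9% of all features. Mr1, which presents vitamin metabolites, had ratios of 8.73 and 5.55, H2-T22 2.47 and 2.08, H2-Q7 1.53 and 2.13, and Cd1d1, which presents lipids, 0.548 and 0.555. H2-Q6 had 1, 2 and 32 counts. H2-Q10, without a count before culture, was 13.4-fold higher on the cultured E11.5 plate against the floor of 3 counts (lower end of the interval 10.3). Of 5 class II genes, which mark antigen-presenting cells, none was at least 2-fold higher over all wells (20.8% and 18.9% of all features were), and 1 was lower on the cultured E11.5 plate and 2 on the cultured E12.5 plate (11.3% and 13% of all features). In stromal wells H2-Ab1 was higher after culture, with 3, 41 and 67 counts (3.80, 27.6 and 28.7 CPM). It was 1 of 2 class II genes tested there on each cultured plate, beside 17.8% (cultured E11.5) and 16.9% (cultured E12.5) of features. H2-Eb1 stood at 11.1, 1.70 and 2.49 CPM, and H2-Ab1 had ratios of 1.58 and 1.55, H2-DMa 0.992 and 1.35, and H2-DMb1 1.33 and 1.62.

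**Figure D4:**
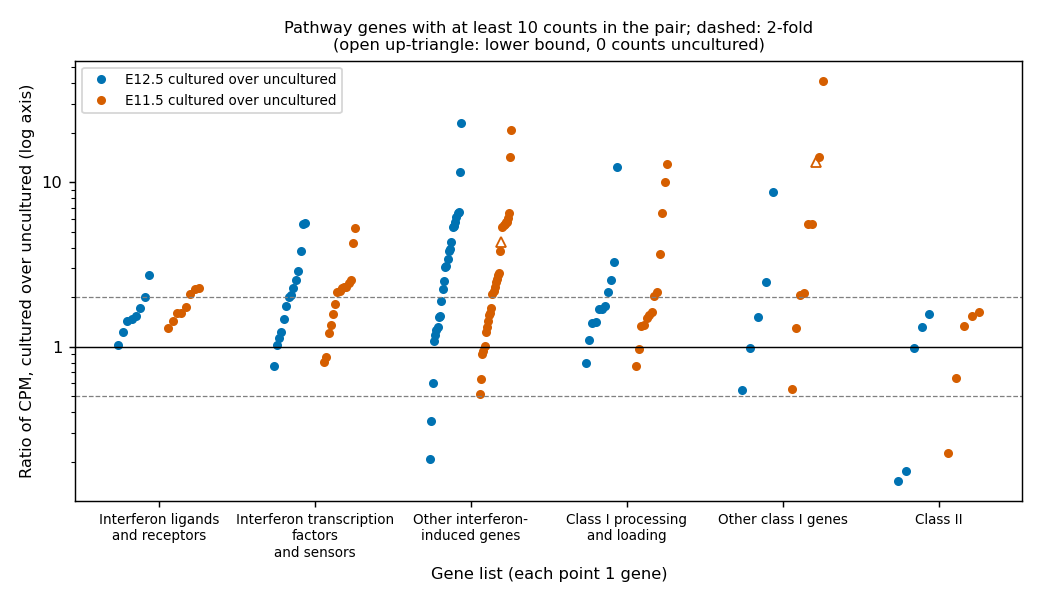
Ratio of cultured to uncultured CPM (log axis) for each gene of 6 lists with at least 10 counts in the pair; each point is 1 gene, dashed lines mark 2-fold, and open triangles are lower bounds for genes with 0 uncultured counts. Most transcription factor and interferon-induced points lie above 1, and over all wells no class II point lies above the upper dashed line.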

How the data were processed

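The deposited tables hold expected counts per gene and well: the authors corrected the counts of unique molecular identifiers, so values are whole at low counts and fractional from 21.1 upward. Per the submitters' processing notes, reads were aligned with STAR 2.6.1a and assigned with featureCounts 1.5.2 to GRCm38.p5. The sources used here do not say how reads shared between near copies were assigned. Here counts were kept unrounded, because no count model was fitted, and mitochondrial genes, spike-ins and added sequences were left out of totals.

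Wells needed 1000 nuclear-encoded counts, and mitochondrial counts could make up no more than 30% of nuclear-encoded and mitochondrial counts together. Counts were summed over wells, scaled to CPM, and compared as ratios with exact 95% intervals (scipy 1.17.1 and pandas 2.3.3 under python 3.11.15, with numpy 2.4.6 and, for figures, matplotlib 3.10.9). The code was run on simulated Poisson plate totals with known folds. These held no spread between wells, so the run cannot tell whether the intervals cover that spread. A gene was called at 2-fold or more with at least 10 counts in the pair. A gene with 0 counts was set against a floor of 3 counts. Kept counts summed to 4159790.9, 2349128.7 and 3210838.1 on the uncultured, cultured E12.5 and cultured E11.5 plates. The design had assumed whole counts.

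The members and lists were chosen with earlier results of these data known. All members are named. Of each list, the 3 genes with the most counts and those with the highest and lowest ratio are named, with the 5 genes most like each of Ifitm2, Ifitm3, B2m and H2-D1. Alternatives were deep wells, leukocyte wells, marker thresholds, plate columns, depth filters and weighting of wells. Leaving out wells with at least 3 leukocyte or endothelium markers, the leading well of a gene, and using the plate rows of the multi-cell wells were chosen after seeing the data. Doublets were not called.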

Additional observations from a re-analysis of the deposited data

Results flagged for a closer look

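Relative to other wells, Ifitm3 was higher in C1qa wells before culture and lower in them after culture. In C1qa wells its CPM was 3.06 times that of wells without C1qa on the uncultured plate (1.46 to 5.81, from 11 counts in C1qa wells), 0.618 times on the cultured E12.5 plate (0.420 to 0.878) and 0.761 times on the cultured E11.5 plate (0.583 to 0.979). With leukocyte wells taken instead as those with at least 3 macrophage markers, that order was not seen: Ifitm3 stood at 66.2, 551.0 and 476.2 CPM in them, above the 19.95, 424.7 and 418.8 CPM of all wells on each plate. On each cultured plate 1 deep well with all 10 stroma markers and no C1qa held many of these Ifitm3 counts. It held 53.3 of 81.3 on the cultured E12.5 plate and 61.5 of 201.5 on the cultured E11.5 plate. Levels without these wells were not computed, so this choice of wells cannot decide the order. The difference between plates was not tested, since each group had 1 plate.

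A merged feature named Ifitm5-cluster, whose contents are not given in the sources used here, lay outside the members. It held 0.285 counts per kept well on the uncultured plate, 1.38 on the cultured E12.5 plate and 1.27 on the cultured E11.5 plate, and no count in the control wells. Its ratios over the uncultured plate were 5.09 (4.02 to 6.49) and 5.13 (4.09 to 6.48), and it was the feature most like Ifitm2 across wells (0.35).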

How the results depend on the processing

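No paired analysis was possible because each group had 1 plate. Of 310 values of single members recomputed under alternatives, 244 stayed within their counting interval, 64 moved out of it and 2 that were at least 2-fold changed direction: Isg15 between the cultured plates, 1.10 without wells holding any leukocyte marker, and Rsad2 between them, 0.730 without the leading well of each plate. Values under 2-fold also changed direction, among them H2-D1 over the uncultured plate, 0.629 (cultured E11.5, without wells holding any leukocyte marker) and 1.19 (cultured E12.5, odd plate columns), and B2m, 0.986 (cultured E12.5, without deep wells). The 2 members different between the cultured plates became 1 without C1qa wells, in even plate columns, without wells holding 3 leukocyte or endothelium markers, as a mean over wells, and at 50 counts in the pair. At 50 counts the stromal count on the cultured E12.5 plate was 2 and that of C1qa wells on the uncultured plate 3. The share of member counts in C1qa wells, 22.9%, 6.13% and 12.3% on the uncultured, cultured E12.5 and cultured E11.5 plates, was 19.9%, 3.83% and 10.5% with at least 3 C1qa counts, and 33.9%, 7.15% and 11.1% without deep wells. Members different in multi-cell wells numbered 2 (cultured E12.5) and 1 (cultured E11.5) against single-cell wells of rows A to G, and 2 on the cultured E11.5 plate without deep wells. For each of these changes the cause was not tested. The share of all features under these settings is not given here, so nothing is read from these counts of members. Low counts limit Isg15, Rsad2 and the uncultured Ifitm1, Oasl2 and H2-K1 values in stroma.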
